A study of Homo sapiens with 12 samples.

Results

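The aryl hydrocarbon receptor, AHR, was followed together with its DNA-binding partner ARNT and 5 genes that it is known to switch on, CYP1A1, CYP1B1, TIPARP, AHRR and ALDH3A1. These 7 genes were taken by name from a table of 63677 genes, and all 7 were among the 17092 genes with enough counts to be tested. They were chosen by gene name with their fold changes between these same groups in view, so their levels and fold changes are given as a description and no p-value is printed for them. On GRCh37 they lie at chr15:75011883-75017877 (CYP1A1), chr2:38294116-38337044 (CYP1B1), chr3:156391024-156424559 (TIPARP), chr5:321829-438406 (AHRR), chr17:19641297-19652256 (ALDH3A1), chr7:16955983-17385776 (AHR) and chr1:150782189-150849184 (ARNT). RNA was sequenced from Huh7, an established human hepatocellular carcinoma line, 6 h after treatment. The 4 groups of 3 samples were cells left untreated, cells given 400 µg/mL of graphene oxide (GO), cells given 400 µg/mL of GO carrying the ginsenoside Rg3 (GO-Rg3), and cells given 100 µg/mL of GO carrying Rg3 and the chemotherapeutic doxorubicin (GO-Rg3-DOX). The GO-Rg3-DOX dose differs from the other doses, so its values stand beside those of GO and GO-Rg3 without a fold change between them. Cells given Rg3 alone are not among the groups, and cells given free DOX were not analysed here. No label says that the samples of a group came from separate cultures, and the spread between them may be technical.

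AHR is a ligand-activated transcription factor of the bHLH-PAS family. Without a ligand it is held in the cytosol by HSP90 and the co-chaperone p23. Ligands such as dioxins, polycyclic aromatic hydrocarbons and tryptophan metabolites send it to the nucleus, where it pairs with ARNT and binds the xenobiotic response element, XRE. Hepatocytes use this pathway to raise the enzymes that oxidise and conjugate foreign aromatic compounds. AHRR and TIPARP are induced by AHR and hold it back in turn.

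Upstream sequence is shown for 4 members because CYP1A1, CYP1B1 and TIPARP are the classical targets whose levels differed most often between groups and AHR is the receptor itself. The 2000 bases before the start of each canonical transcript (GENCODE on GRCh37) were searched on both strands for the XRE core GCGTG, and for the longer form TNGCGTG, every match of which is also a core match. CYP1A1 held 11 core matches, a number reached by 0.7% of 19151 protein-coding genes, and 5 matches to the longer form, reached by 0.0366%. CYP1B1 held 8 core matches (3.93% of genes have as many) and 4 of the longer form (0.183%). TIPARP held 7 core matches (7.05%), ARNT 6 (12.5%), and AHRR and ALDH3A1 4 each (32.2%). AHR held no core match in that stretch, whereas 85.1% of genes held at least 1. The 300 bases with the most core matches are printed for CYP1A1 (chr15:75018830-75019129, minus strand, bases -1260 to -961 from the start), CYP1B1 (chr2:38304021-38304320, minus strand, bases -1027 to -728 from the start) and TIPARP (chr3:156392079-156392378, plus strand, directly before the start), each with 5 matches. For AHR the 250 bases directly before the start are printed (chr7:17338026-17338275, plus strand). Capitals mark GCGTG or its reverse complement CACGC, and each sequence runs 5′ to 3′ on the strand of its gene.
CYP1A1: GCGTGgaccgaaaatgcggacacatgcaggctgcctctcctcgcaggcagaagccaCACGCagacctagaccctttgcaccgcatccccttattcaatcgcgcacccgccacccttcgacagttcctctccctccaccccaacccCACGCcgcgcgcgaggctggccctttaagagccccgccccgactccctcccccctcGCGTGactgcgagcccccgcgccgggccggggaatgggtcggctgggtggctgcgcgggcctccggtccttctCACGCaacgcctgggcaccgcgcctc
CYP1B1: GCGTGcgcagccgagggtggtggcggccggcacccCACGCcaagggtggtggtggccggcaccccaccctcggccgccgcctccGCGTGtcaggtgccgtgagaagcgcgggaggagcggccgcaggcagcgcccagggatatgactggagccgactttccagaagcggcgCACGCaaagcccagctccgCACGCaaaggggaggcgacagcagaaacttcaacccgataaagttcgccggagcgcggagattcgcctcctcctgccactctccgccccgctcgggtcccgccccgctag
TIPARP: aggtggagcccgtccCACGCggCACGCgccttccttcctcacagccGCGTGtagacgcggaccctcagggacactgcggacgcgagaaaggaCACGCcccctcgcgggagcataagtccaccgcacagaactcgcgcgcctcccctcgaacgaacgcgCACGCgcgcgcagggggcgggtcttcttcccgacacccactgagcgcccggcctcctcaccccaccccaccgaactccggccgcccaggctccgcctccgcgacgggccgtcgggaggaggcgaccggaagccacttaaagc
AHR: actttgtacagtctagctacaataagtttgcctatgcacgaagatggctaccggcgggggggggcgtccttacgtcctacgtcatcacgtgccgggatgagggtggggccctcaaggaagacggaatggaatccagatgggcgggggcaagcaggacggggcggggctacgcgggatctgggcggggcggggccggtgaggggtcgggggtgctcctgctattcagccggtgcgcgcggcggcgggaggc

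**Figure D1:**
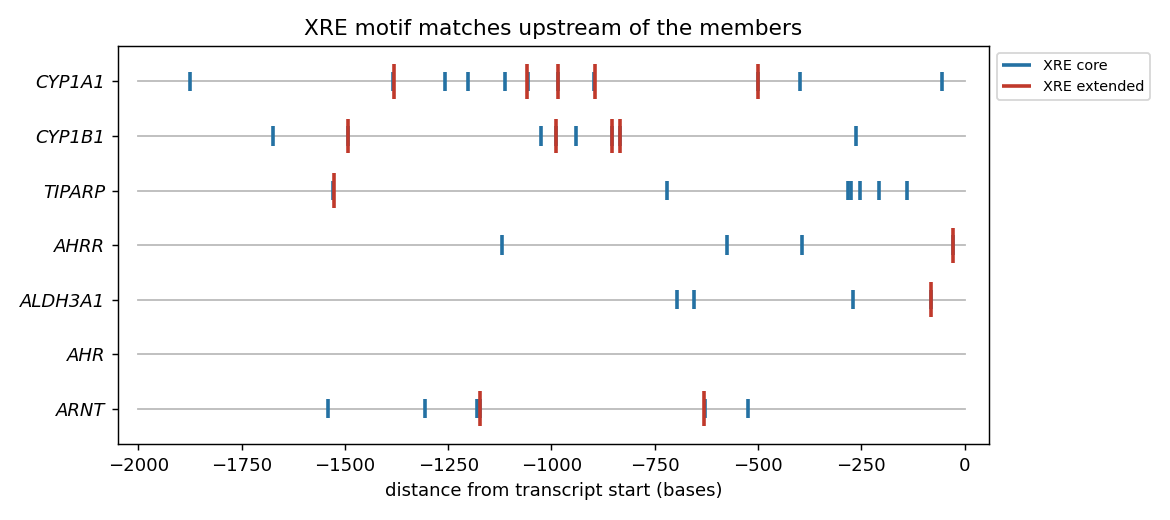
Matches to the XRE core (blue ticks) and its longer form (taller red ticks, each also a core match) in the 2000 bases before the transcript start of each member; the x axis is the distance from the start in bases. CYP1A1 carries 11 core matches, CYP1B1 8, TIPARP 7 and AHR none.

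The libraries held 27802871 to 38877420 gene counts, and 1 CPM (a library's counts scaled by its total and edgeR's TMM factor) stood for 24.3 to 42.5 counts. Transcripts of the mitochondrial genome took 5.31 to 7.42% of counts in untreated and GO-Rg3 samples, 12.1 to 24.1% after GO and 12.8 to 19.4% after GO-Rg3-DOX. GO replicate 1 had the highest share and stood apart from the other GO samples. All 10 hepatocyte marker genes were at 1 CPM or more in every group, while the 5 markers of immune, endothelial and fibroblast cells summed to 0.94 to 3.49 CPM in a sample. In bulk RNA, fewer cells expressing a gene and less of its RNA per cell cannot be told apart.

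CYP1A1, the monooxygenase that oxidises polycyclic aromatic hydrocarbons and the most used readout of AHR activity, had the largest difference from untreated cells of the 7 members after GO and after GO-Rg3, while AHR and TIPARP had larger ones after GO-Rg3-DOX. It was well expressed in untreated Huh7 cells, at 77.7 ± 2.19 CPM per kb of transcript (SD, n = 3), rank 848 of 16310 genes with a transcript length. Its 3 untreated samples held 197, 201 and 208 CPM. The GO samples held 5.25, 4.25 and 3.96 CPM, on 134 to 159 counts each. The GO-Rg3 samples held 58.9, 57.7 and 58.3 CPM, and the GO-Rg3-DOX samples 88.6, 86.6 and 90.4 CPM. None of the 4 groups overlapped another, and in every group the 3 samples lay close together compared with the gaps between groups.

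GO left CYP1A1 at 2.22% ± 0.334 of its untreated mean (SD, n = 3), a log2 fold change of -5.50 (standard error 0.12). GO-Rg3, at the same dose of 400 µg/mL, left it at 28.8% ± 0.277, a log2 fold change of -1.79 (standard error 0.10). Among the 13243 genes that averaged at least 1 CPM, CYP1A1 had the most negative log2 fold change in both comparisons with untreated cells. Set directly against GO, CYP1A1 was 13.1-fold higher in GO-Rg3 cells (log2 fold change 3.71, standard error 0.11), the second highest value of those 13243 genes. GO-Rg3-DOX left CYP1A1 at 43.8% ± 0.964 of untreated, a log2 fold change of -1.19 (standard error 0.09) that ranked 2146 from the lowest. Its near neighbour CYP1A2, another AHR target, had at most 9 counts in any sample and was not tested.

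**Figure D2:**
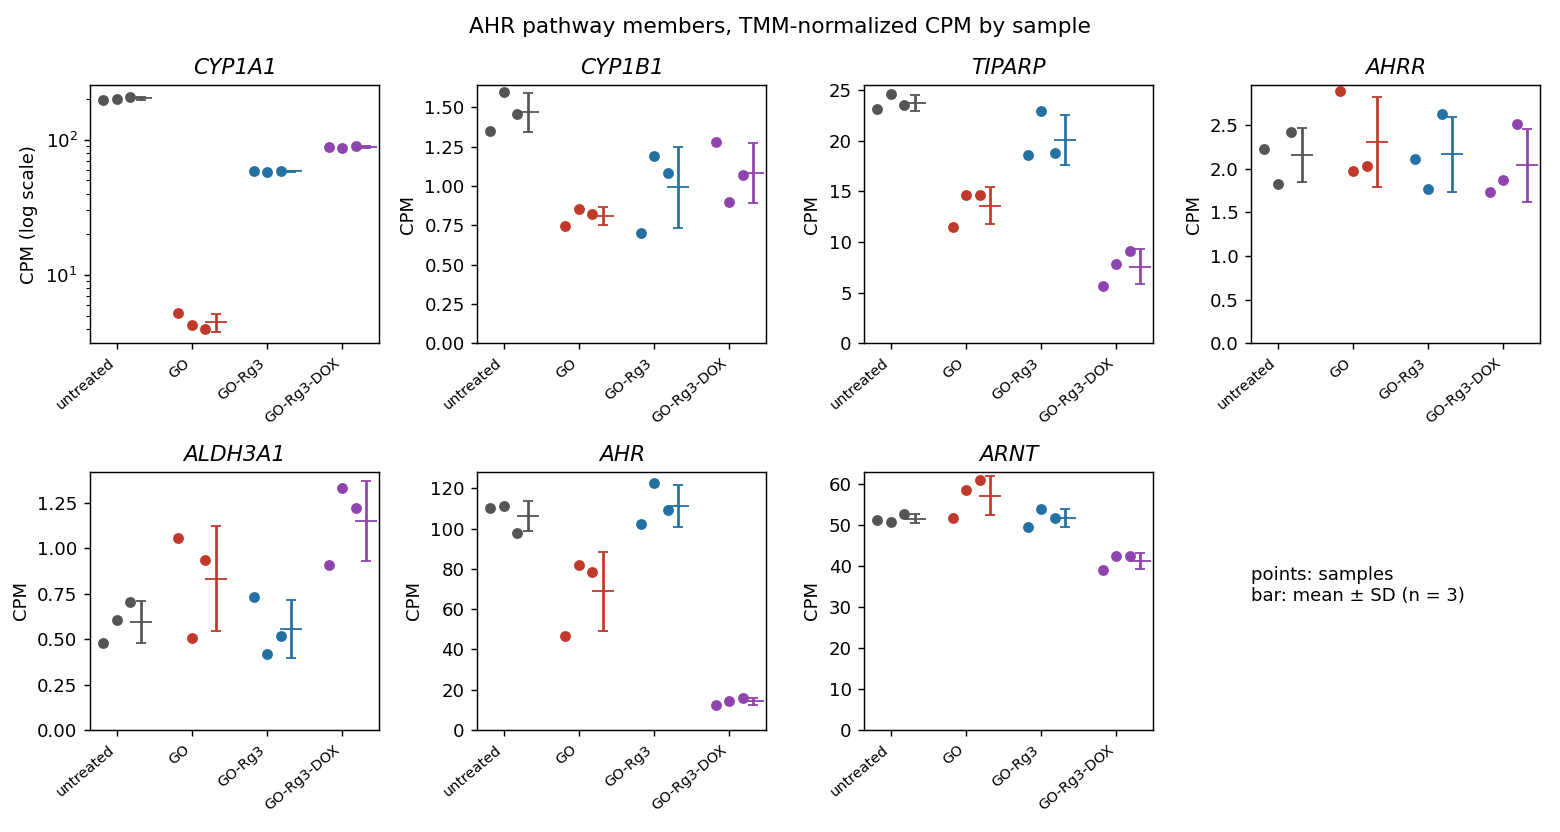
TMM-normalized CPM of each member (y axis, log scale for CYP1A1 and linear from 0 for the others) in the 4 groups (x axis); points are samples, and the bar beside them is the mean ± SD (n = 3). CYP1A1 separates all 4 groups, AHR and TIPARP are lowest after GO-Rg3-DOX, and AHRR overlaps throughout.

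CYP1B1 is a related monooxygenase that is expressed mainly outside the liver, and in Huh7 cells it was close to the lower limit of what could be tested. Untreated samples held 1.35, 1.60 and 1.46 CPM, on 50 to 62 counts. The GO samples held 0.744, 0.856 and 0.821 CPM, all below every untreated sample (log2 fold change -0.85, standard error 0.22). The GO-Rg3 samples, at 0.703, 1.19 and 1.08 CPM, and the GO-Rg3-DOX samples, at 1.28, 0.899 and 1.07 CPM, also lay below every untreated sample but overlapped each other. Their log2 fold changes against untreated cells were -0.57 and -0.44, each with a standard error of 0.22, and neither passed the threshold. CYP1B1 passed it after GO, and lost it there in 10 of 22 alternative analyses. CYP1B1 shares 96 exonic bases with RMDN2 on the opposite strand, which held 29 to 132 counts per sample. The strand setting of the counting is not given in the sources used here.

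TIPARP encodes a mono-ADP-ribosyltransferase that modifies AHR and shortens its activity. Its untreated samples held 23.1, 24.6 and 23.6 CPM. The GO-Rg3 samples held 18.5, 22.9 and 18.7 CPM, the GO samples 11.4, 14.6 and 14.6 CPM, and the GO-Rg3-DOX samples 5.69, 7.80 and 9.11 CPM. No 2 groups overlapped, and the order differed from that of CYP1A1, with GO-Rg3-DOX lowest for TIPARP and GO lowest for CYP1A1. The log2 fold changes against untreated were -0.80 (standard error 0.15) with GO, -0.24 (standard error 0.15) with GO-Rg3 and -1.65 (standard error 0.16) with GO-Rg3-DOX. With an offset for transcript GC content these 3 values were -0.56, -0.18 and -1.19. The GO-Rg3 value did not pass the threshold, nor did that of 0.56 (standard error 0.15) for GO-Rg3 against GO, which passed in 5 of 22 alternatives.

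AHRR and ALDH3A1 had low levels. AHRR encodes the repressor that competes with AHR for ARNT, and its group means of 2.04 to 2.31 CPM overlapped in every pair of groups. The log2 fold changes of AHRR ran from -0.09 to 0.07 with standard errors of 0.21 to 0.22, and the sign of each changed with the processing. AHRR shares 5561 exonic bases with the read-through gene PDCD6-AHRR on the same strand, so reads of the 2 cannot be separated. ALDH3A1 encodes an aldehyde dehydrogenase of the AHR battery. Its GO-Rg3-DOX samples, at 0.906, 1.33 and 1.22 CPM, lay above the untreated samples, at 0.476, 0.607 and 0.707 CPM, on 18 to 37 counts in these 6 samples. That log2 fold change of 0.95 (standard error 0.30) did not pass the threshold, but it did in 7 of 22 alternatives. The GO and GO-Rg3 samples of ALDH3A1 overlapped the untreated samples.

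AHR followed another order of groups than CYP1A1. It shares 2373 exonic bases with ENSG00000283321, a protein-coding gene annotated on the same strand and not in the count table, so reads of the 2 cannot be separated. Untreated samples held 110.1, 111.2 and 97.8 CPM, and the GO-Rg3 samples 102.2, 122.7 and 109.2 CPM, which overlapped (log2 fold change 0.07, standard error 0.17). The GO samples held 46.5, 81.9 and 78.6 CPM, below both groups, with GO replicate 1 far below the other GO samples. Their log2 fold change was -0.62 (standard error 0.17), which lost the threshold in 13 of 22 alternatives. It was -0.40 without GO replicate 1 and -0.38 with an offset for transcript GC content, and passed in neither. The GO-Rg3-DOX samples held 12.2, 14.7 and 15.9 CPM, 13.4% ± 1.77 of the untreated mean. This log2 fold change of -2.90 (standard error 0.18) ranked 97 from the lowest of 13243 genes, and was -2.43 with the GC offset. In GO-Rg3 against GO, AHR was higher (log2 fold change 0.69, standard error 0.17), and 0.47 without GO replicate 1; it lost the threshold there in 10 of 22 alternatives.

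ARNT is the partner that AHR shares with the hypoxia-inducible factors. It held 50.7 to 52.8 CPM in untreated samples, 49.5 to 54.0 in GO-Rg3 samples and 51.9 to 61.0 in GO samples, and these 3 groups overlapped. The GO-Rg3-DOX samples of ARNT held 39.1, 42.5 and 42.6 CPM, below all others, with a log2 fold change against untreated of -0.32 (standard error 0.09). That value was -0.10 with an offset for transcript GC content and -0.73 when only library totals were used for scaling.

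Per unit of transcript length, untreated cells held 4.58 ± 0.458 CYP1A1 transcripts for each AHR transcript (SD, n = 3). This ratio was 0.172 ± 0.0857 in GO cells, 1.26 ± 0.127 in GO-Rg3 cells and 15.1 ± 2.06 in GO-Rg3-DOX cells, and no group overlapped another. The highest ratio therefore stood in the group with the least AHR RNA, where CYP1A1 kept 43.8% and AHR 13.4% of their untreated means. The AHR to ARNT ratio per length was 1.56 ± 0.139 in untreated cells, 0.899 ± 0.198 after GO, 1.62 ± 0.0820 after GO-Rg3 and 0.259 ± 0.0234 in GO-Rg3-DOX cells. Over the 12 samples, which form 4 groups, Pearson's r of log2 CPM was -0.05 between CYP1A1 and AHR, 0.74 between CYP1A1 and CYP1B1 and 0.95 between TIPARP and AHR.

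**Figure D3:**
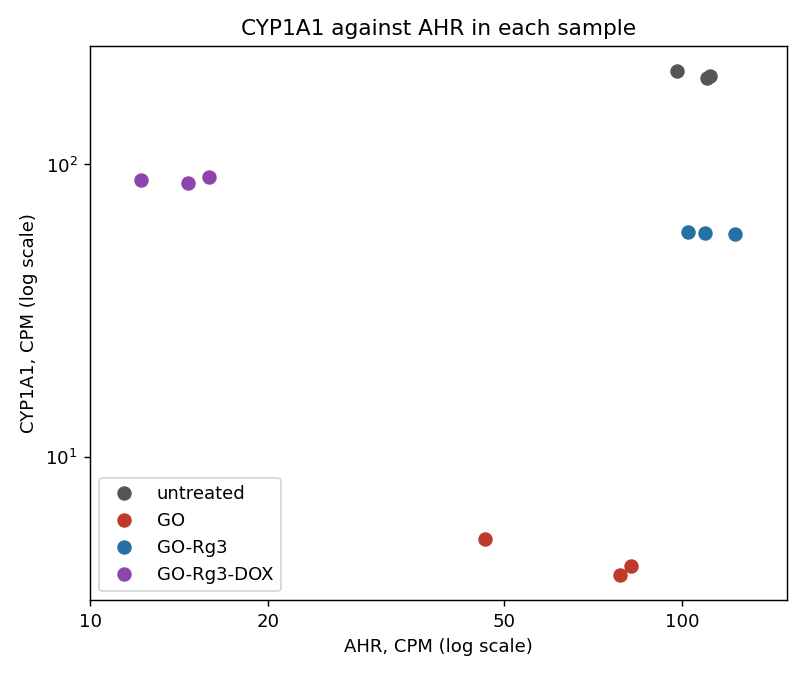
CYP1A1 (y axis) against AHR (x axis) in each of the 12 samples, both as CPM on log scales, coloured by group. The GO samples hold the least CYP1A1 at intermediate AHR, and the GO-Rg3-DOX samples hold the least AHR with CYP1A1 at 86.6 to 90.4 CPM.

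Across the members, 4 of 7 were lower after GO at an adjusted p below 0.01, beside 15.4% of all tested genes, and 4 of 7 did not overlap the untreated samples and lay below them, beside 29.9%. The 4 were CYP1A1, CYP1B1, TIPARP and AHR. After GO-Rg3 only CYP1A1 passed, where 0.105% of all genes passed downward, and 3 members (CYP1A1, CYP1B1 and TIPARP) lay below the untreated samples without overlap, beside 16.6%. After GO-Rg3-DOX 4 members passed downward (CYP1A1, TIPARP, AHR and ARNT), beside 30.5% of all genes, and 5 lay below without overlap, beside 40.3%. In GO-Rg3 against GO, CYP1A1 and AHR passed upward, beside 7.33%, and those 2 and TIPARP lay above without overlap, beside 20.1%. These comparisons chose the members, and the 3 against untreated cells share the untreated samples, so nothing is read from the counts.

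**Figure D4:**
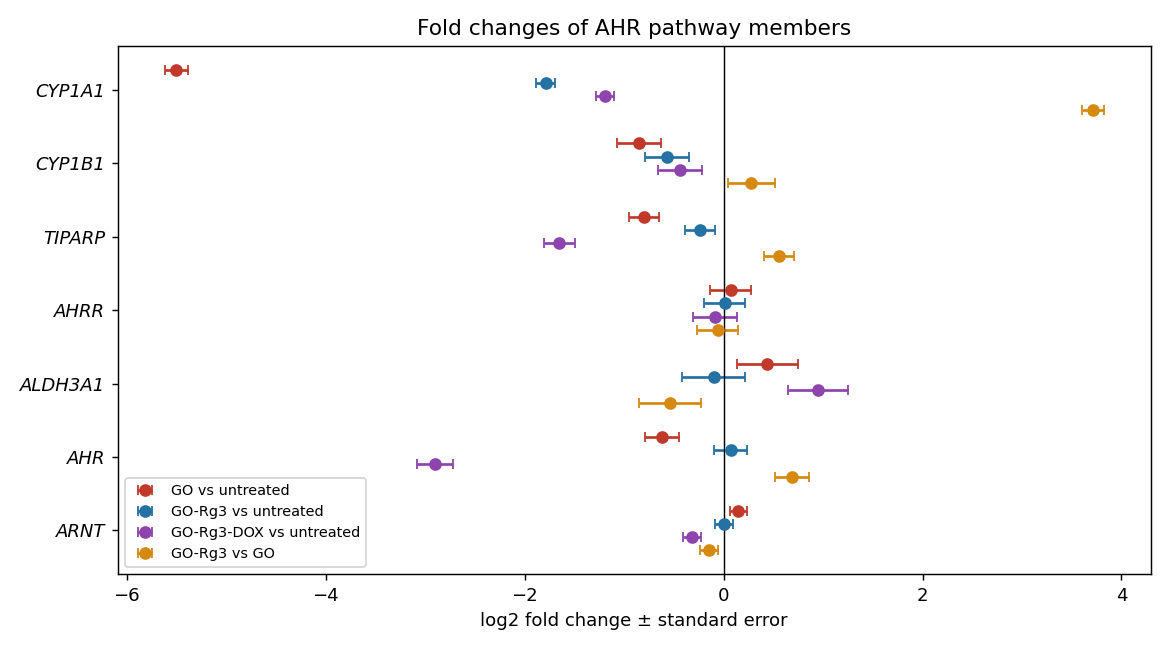
Log2 fold change of each member (x axis, points) with its standard error (bars) in the 3 comparisons with untreated cells and in GO-Rg3 against GO. CYP1A1 runs from -5.50 to 3.71, AHR reaches -2.90 after GO-Rg3-DOX, and AHRR stays near 0.

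The genes around the pathway were read from 4 lists, with 47 of their 57 genes tested. In the quasi-likelihood fit of edgeR, with p-values adjusted by Benjamini and Hochberg, 18 of the 47 changed after GO (8 higher, 10 lower) at an adjusted p below 0.01, beside 27.6% of all genes in either direction. After GO-Rg3 none passed, beside 0.164%. An unadjusted p below 0.05 was seen for 12, and nothing is read from this because the share of all genes at that level is not given. With DESeq2 1 gene, NQO1, had an adjusted p below 0.01, and its edgeR log2 fold change was -0.33. After GO-Rg3-DOX 22 changed (10 higher, 12 lower), beside 56.0%, and 6 changed in GO-Rg3 against GO (5 higher, 1 lower), beside 13.6%. That count of 6 was 3 when only the 6 samples were fitted, 10 without GO-Rg3 replicate 1 or with DESeq2, and 11 with no filter on low counts.

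Of 13 tested genes of the AHR complex and its cofactors, 6 changed after GO (3 higher, 3 lower), beside 27.6% of all genes. The chaperones that hold the unliganded receptor fell, HSP90AA1 from 2460 ± 51.5 to 1393 ± 206 CPM (log2 fold change -0.82, standard error 0.13, edgeR adjusted p = 0.00017), with HSP90AB1 and the p23 gene PTGES3 also lower. RELB and RELA, NF-κB subunits that can bind AHR, rose by 1.15 (standard error 0.20, edgeR adjusted p = 0.00038) and 0.96 (standard error 0.18, edgeR adjusted p = 0.00064) on the log2 scale, as did CREBBP by a smaller amount. HSP90AA1 was higher in GO-Rg3 than in GO cells (log2 fold change 0.70, edgeR adjusted p = 0.0013), though not past the threshold when only those 6 samples were fitted (adjusted p = 0.019). After GO-Rg3-DOX 7 of the 13 changed (1 higher, 6 lower), a share close to the 56.0% of all genes. The coactivator genes NCOA1, NCOA2, NCOA3, EP300 and CREBBP and the corepressor gene NRIP1 fell, with log2 fold changes of -1.79 for NRIP1 and -1.24 for EP300 (edgeR adjusted p = 2.4e-07 and 3.6e-07). The median over the 13 genes was 0.02 after GO, beside 0.01 for all genes, and -0.48 after GO-Rg3-DOX, beside -0.06.

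Of 15 other known AHR targets tested, 5 fell and 2 rose after GO, beside 27.6% of all genes in either direction. NFE2L2, the gene of the antioxidant regulator NRF2, fell from 252.0 ± 2.31 to 117.8 ± 12.02 CPM (log2 fold change -1.10, standard error 0.10, edgeR adjusted p = 2.4e-06). NQO1, a quinone reductase that AHR and NRF2 both induce, fell from 502.9 ± 10.03 to 299.8 ± 17.4 CPM (edgeR adjusted p = 1.9e-05), and the glutathione transferase genes GSTA1 and GSTA2, close paralogs that can share reads, fell too, as did the DNA polymerase gene POLK. STC2, which encodes a secreted glycoprotein, rose from 11.32 ± 1.001 to 49.45 ± 5.545 CPM (log2 fold change 2.12, standard error 0.13, edgeR adjusted p = 3.6e-08). CYP2S1, another P450 gene, rose from 3.23 ± 0.178 to 6.35 ± 1.16 CPM (edgeR adjusted p = 0.00095). The directions therefore differed among targets, and the median log2 fold change over the 15 was -0.37 beside 0.01 for all genes. After GO-Rg3-DOX the targets again split, with NFE2L2, POLK and the scaffold gene NEDD9 lower (log2 fold changes -1.72, -1.70 and -1.43) and CYP2S1, GSTA2 and PTGS2 higher. PTGS2 had few counts, 3 to 15 in untreated and 28 to 32 in GO-Rg3-DOX samples. PTGS2 and GSTA2 were named after their values were seen. NQO1 was not lower after GO-Rg3-DOX, at 583.7 ± 22.2 CPM.

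**Figure D5:**
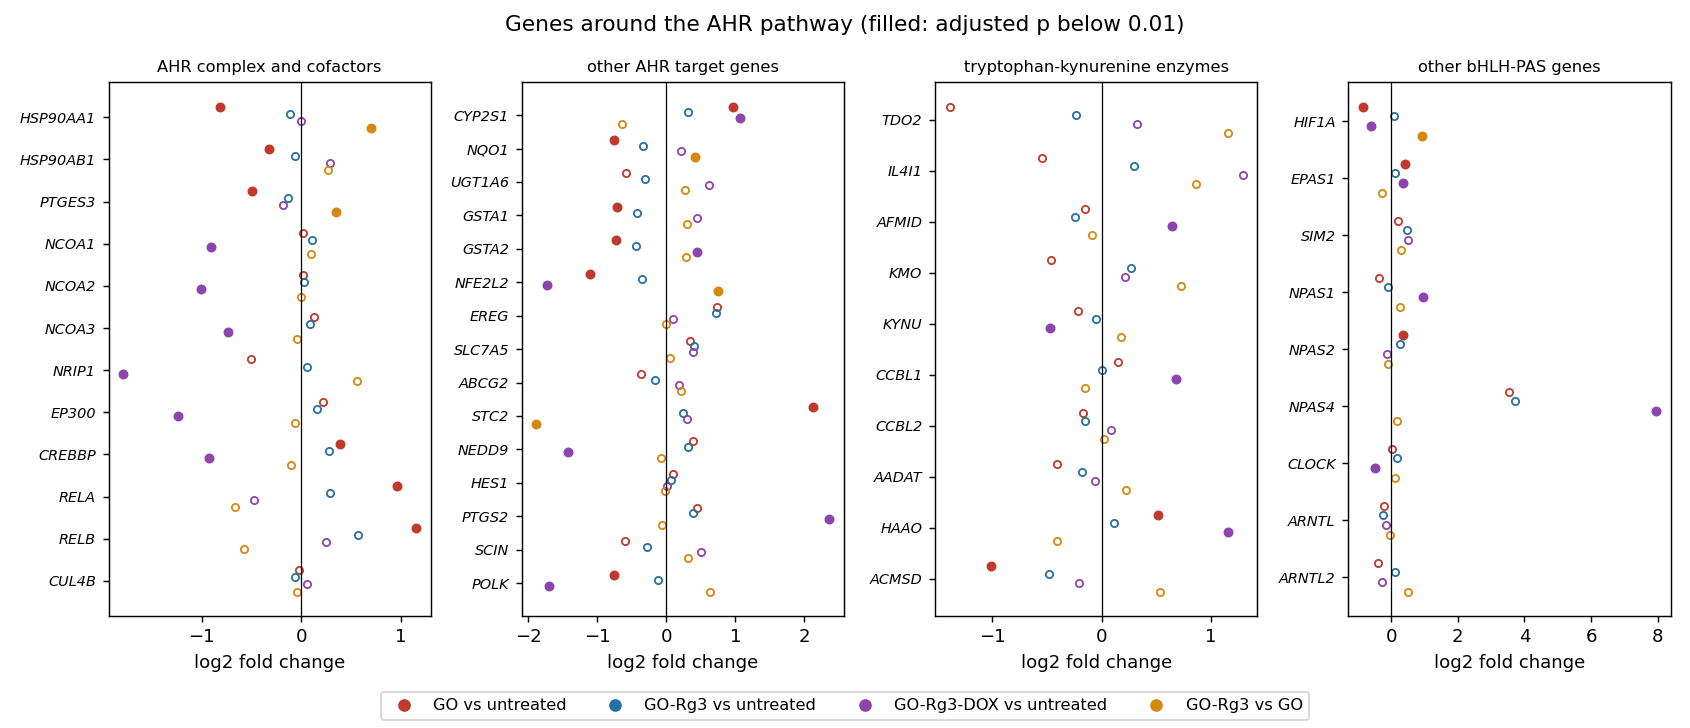
Log2 fold change (x axis) of the tested genes in the 4 lists around the AHR pathway, 1 of them not shown, coloured by comparison; filled points passed an adjusted p of 0.01 and open points did not. No point of GO-Rg3 against untreated is filled, and NPAS4 stands far right after GO-Rg3-DOX because its untreated samples hold 0 counts.

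The tryptophan to kynurenine enzymes make endogenous AHR ligands or their derivatives. IDO1, the inducible first enzyme, had at most 1 count in a sample and IDO2 at most 6, while TDO2, the liver's first enzyme, held 0.745 ± 0.169 CPM in untreated and 0.278 ± 0.105 in GO cells (log2 fold change -1.39, standard error 0.44, edgeR adjusted p = 0.019, not past the threshold). Of the 10 tested genes of this list, 1 fell and 1 rose after GO, beside 27.6% of all genes in either direction. ACMSD, which diverts the pathway from NAD synthesis, fell (log2 fold change -1.01, edgeR adjusted p = 0.00023). HAAO was higher by 0.52 (edgeR adjusted p = 0.0084), which was lost in 13 of 22 alternatives. HAAO rose after GO-Rg3-DOX by 1.16 (edgeR adjusted p = 3.5e-06), and 4 of 10 genes changed there in all, beside 56.0% of all genes.

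Among 9 other bHLH-PAS genes tested, HIF1A, whose protein also pairs with ARNT, fell after GO from 252.8 ± 7.01 to 141.6 ± 30.0 CPM (log2 fold change -0.84, standard error 0.13, edgeR adjusted p = 0.00018). It was higher in GO-Rg3 than in GO cells, at 271.7 ± 26.5 CPM (log2 fold change 0.94, edgeR adjusted p = 0.00019). HIF1A was also lower after GO-Rg3-DOX, by a log2 fold change of -0.59 that became -0.06 with the GC offset. EPAS1 was higher after GO by 0.41 and NPAS2 by 0.36 on the log2 scale, and neither held with scaling by library totals. NPAS4, an early-response gene named after its values were seen, had 0 counts in the 3 untreated samples and 17 to 33 counts in the GO-Rg3-DOX samples (edgeR adjusted p = 2e-06).

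The 5 genes whose pattern over the 12 samples was most like that of CYP1A1 were sought among 986 genes with a mean of at least 1 CPM and a range of group means of at least 2 on the log2 scale. They were TMEM27 (Pearson's r = 0.979), the metallothionein genes MT1X (0.967), MT1E (0.963) and MT1F (0.938), and the protocadherin gene PCDH9 (0.943). TMEM27, which encodes a collectrin of the cell membrane, held 2.77 ± 0.153 CPM in untreated, 0.599 ± 0.102 in GO, 1.64 ± 0.278 in GO-Rg3 and 1.84 ± 0.206 in GO-Rg3-DOX cells. Its group means had the same order as those of CYP1A1, but the GO-Rg3 and GO-Rg3-DOX means lay close for their SDs. MT1X held 12.1 ± 0.707, 0.828 ± 0.0347, 8.53 ± 1.64 and 7.02 ± 2.22 CPM in the same groups. Unlike CYP1A1, the genes MT1X, MT1E, MT1F and PCDH9 had a higher mean in GO-Rg3 than in GO-Rg3-DOX cells. The metallothionein genes are close paralogs that can share reads, and the 12 samples fall into 4 groups, so these correlations are a description.

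Medians over other genes carrying the longer motif lay near those of genes without it, and whether AHR binds these matches was not tested. Over the 168 tested protein-coding genes, members excluded, with 3 or more TNGCGTG matches in the 2000 bases upstream, the median log2 fold change was -0.06 for GO, 0.01 for GO-Rg3 and -0.14 for GO-Rg3-DOX, each against untreated cells. The 8645 genes without a match had medians of -0.05, -0.01 and -0.05. With 1 match (3567 genes) the medians were -0.01, 0.00 and -0.06, and with 2 (881 genes) 0.05, 0.02 and -0.01.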

How the data were processed

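Gene counts of 12 Huh7 RNA-seq libraries (poly(A)-selected, TruSeq Stranded mRNA) were analysed. The authors aligned reads to GRCh37 and obtained counts per gene from featureCounts, deposited without normalization; the annotation release and strand setting are not given in the sources used here. Samples were grouped by the treatment in their labels. Genes reaching 10 counts in 3 or more samples (17092 of 63677) were scaled by TMM and fitted over all 12 samples with edgeR 4.0.16 (R 4.3.3) and its quasi-likelihood test. A gene passed at a Benjamini-Hochberg adjusted p below 0.01. Standard errors are the absolute log2 fold change over the square root of F. Intervals of counting error were not needed because every value has replicates.

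The members and lists were chosen with earlier results of these data known. List genes were named by rule. The rule took the 3 with the largest absolute fold change per list and comparison among those past the threshold with a mean of at least 1 CPM. Other genes were named after their values were seen. After GO these were HSP90AB1, PTGES3, CREBBP, NQO1, GSTA1, GSTA2 and POLK. After GO-Rg3-DOX they were NCOA1, NCOA3, CREBBP, CYP2S1, GSTA2, PTGS2, NPAS4, NQO1, NR1I2 and HNF4A. NQO1 after GO-Rg3, and CYP1A2, TDO2, IDO1, IDO2 and CYP3A4, were also named in this way. Results of some list genes are not reported here. Alternatives were RLE scaling, library totals, removal of mitochondrially encoded genes, other count filters, DESeq2 1.42.0, fits of 6 samples, a replicate block, a GC offset and each sample left out. The edgeR step was tested on simulated data. Upstream sequence was read from GRCh37 with GENCODE transcripts, and CPM per kb uses the canonical transcript's length.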

Additional observations from a re-analysis of the deposited data

How the results depend on the processing

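CYP1A1 kept its direction and its side of the threshold in all 4 comparisons under all 22 alternatives, with log2 fold changes of -5.63 to -5.41 after GO, -1.81 to -1.72 after GO-Rg3, -1.61 to -1.12 after GO-Rg3-DOX and 3.62 to 3.86 for GO-Rg3 against GO. Of 616 refits of the members, 43 lost the threshold, 13 gained it and 23 changed sign, none of the last among those past the threshold. The count of 4 members after GO was 2 with a GC offset, alone or with the replicate block, and 2 to 4 with 1 sample left out. AHR lost the threshold without any 1 untreated sample, GO replicate 1 or 3, GO-Rg3 replicate 3 or GO-Rg3-DOX replicate 2 or 3 (log2 fold changes over all left-out fits -0.76 to -0.40), and CYP1B1 without any 1 untreated or GO sample, GO-Rg3 replicate 3 or GO-Rg3-DOX replicate 3 (-0.91 to -0.79). ARNT after GO-Rg3-DOX lost it in 10 alternatives. The 2 members in GO-Rg3 against GO became 1 with library totals or only 6 samples and ranged from 1 to 3 with 1 sample left out. The list genes after GO-Rg3 went from 0 to 1 with no filter on low counts and with DESeq2. In GO-Rg3 against GO they went from 6 to 11 with no filter, 10 with DESeq2, 3 with only 6 samples and 11 with the replicate block, and ranged from 4 to 10 with 1 sample left out, with 10 without GO-Rg3 replicate 1. After GO-Rg3-DOX, CLOCK reversed to 0.11 with the GC offset, alone or with the block, and EPAS1 to -0.05 with library totals; the cause was not tested. Library totals moved the median log2 fold change over all genes after GO-Rg3-DOX from -0.06 to -0.47 and the share of higher genes among those past the threshold and beyond a log2 fold change of 1 from 41.03% to 17.25%; after GO that share went from 59.5% to 40.7%, and in GO-Rg3 against GO from 25.4% to 48.8%. Deviations of same-numbered samples correlated at -0.024 to 0.253 (mean 0.092), and those of other numbers at -0.257 to 0.212 (mean -0.045). A weak pairing by replicate number is therefore not excluded, and the main fit holds no replicate block. Depth limits CYP1B1, AHRR and ALDH3A1, with as few as 13 counts in a sample.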

Other observations

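The pregnane X and constitutive androstane receptors, PXR and CAR, govern another set of liver P450 genes, and 10 of the 11 genes listed for them were tested. After GO, CYP2C8 was lower (log2 fold change -1.32, standard error 0.18, edgeR adjusted p = 6.1e-05), while CYP2B6 was higher (0.61, standard error 0.14, edgeR adjusted p = 0.0026). The PXR gene NR1I2 was higher by 0.46 (edgeR adjusted p = 0.0099), which was lost in 14 of 22 alternatives. After GO-Rg3 none of the 10 passed in edgeR or DESeq2, and 1 had an unadjusted p below 0.05. After GO-Rg3-DOX 5 rose, among them CYP2B6 (log2 fold change 1.02, edgeR adjusted p = 1e-05), and the receptor genes NR1I2 and NR1I3 fell, with a log2 fold change of -1.07 for NR1I3. Of all genes, 56.0% passed there in either direction. CYP3A4, the best known PXR target, had at most 6 counts in a sample.

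Of the 10 hepatocyte markers, 8 rose and 1 fell after GO-Rg3-DOX, beside 56.0% of all genes in either direction. SERPINA1 was higher by 1.28 and APOB by 1.09 on the log2 scale (edgeR adjusted p = 4.2e-06 and 3.6e-05). The 1 that fell was HNF4A (log2 fold change -1.02, edgeR adjusted p = 1.8e-06). After GO 3 of the 10 fell, 1 rose and 6 did not pass, beside 27.6% of all genes in either direction. AFP and ALB were lower there, with log2 fold changes of -1.07 and -0.67 (edgeR adjusted p = 0.00016 and 0.0012). HNF4A rose by 0.63 (edgeR adjusted p = 0.00056). The summed level of the 10 was 24380 to 24510 CPM in untreated samples, 15700 to 18540 after GO and 32860 to 37600 after GO-Rg3-DOX. AFP was the largest single part of it, with a mean of 12290 CPM in untreated samples and 5836 CPM after GO. Of 4 markers of mesenchymal breast cancer lines, VIM and CAV1 were at 1 CPM or more in every group, and the 4 summed to 338.9 to 360 CPM in untreated samples and 474.4 to 822.6 after GO. Most of that sum was VIM, which after GO had a median of 465.3 and a highest sample of 803.6 CPM. The rise of VIM after GO lost the threshold in 6 of 22 alternatives, among them the fit without GO replicate 1. Whether these shifts had a part in the levels of the AHR genes was not tested. Of 7 tested neighbours and antisense genes of the members, 2 fell after GO, beside 15.4% of all genes. The 2 were PDCD6 and ALDH3A2 (log2 fold changes -0.42 and -0.33, lost in 10 and 12 of 22 alternatives). After GO-Rg3-DOX 5 of the 7 changed, beside 56.0%. Among the markers of immune, endothelial and fibroblast cells 2 genes were tested, and both rose after GO-Rg3-DOX, COL3A1 by 1.37.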
